A study of Mus musculus with 10 samples.

Results

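The 6 actin genes of the mouse, Acta1, Acta2, Actb, Actc1, Actg1 and Actg2, were taken by name from a table of 55858 genes, and all 6 were found and passed the filter on low values. Expression was measured by sequencing RNA from hearts of 10-day-old mice, in 5 animals per group. The cKO animals were given tamoxifen under the skin at 0.1 mg/g on 2 days from birth, to delete Chmp4b, which encodes a subunit of the membrane-cutting complex ESCRT-III. The Ctrl animals were given corn oil. All animals of both groups carried the genotype labelled MCM; Chmp4bF/F, so the drug and the deletion cannot be told apart, and the promoter that drives the recombinase is not stated in the labels. The series concerns ESCRT in the formation of T-tubules, the membrane folds of heart muscle cells. Values are TPM, in which reads per gene are corrected for gene length and each library is brought to the same total.

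Actin is the globular protein that polymerises into thin filaments and into the cytoskeleton of every cell. Mammals use 6 genes for nearly the same protein. Actc1 encodes cardiac and Acta1 skeletal muscle α-actin, the actins of striated thin filaments. Acta2 encodes smooth muscle α-actin of vessels and myofibroblasts and Actg2 smooth muscle γ-actin, chiefly of gut. Actb and Actg1 encode the cytoplasmic β- and γ-actins, which serve cell shape, adhesion and migration and are often used as reference genes. In the mouse, embryonic cardiomyocytes also use Acta2 and Acta1 before Actc1 becomes dominant. Serum response factor (SRF) and its cofactors of the MRTF family, which sense unpolymerised actin, drive many of these genes.

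The isoforms differ most at the start of the protein, so the first 48 coding bases are shown, from GENCODE M21 transcripts, 5′ to 3′. Capitals mark bases that did not match Actc1 in a pairwise alignment of the whole coding sequences.
Actc1: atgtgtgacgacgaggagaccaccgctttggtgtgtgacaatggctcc
Acta1: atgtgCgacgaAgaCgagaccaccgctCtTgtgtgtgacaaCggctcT
Acta2: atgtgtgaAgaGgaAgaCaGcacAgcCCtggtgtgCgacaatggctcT
Actg2: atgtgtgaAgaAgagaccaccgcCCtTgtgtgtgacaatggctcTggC
Actb: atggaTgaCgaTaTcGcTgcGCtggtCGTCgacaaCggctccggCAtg
Actg1: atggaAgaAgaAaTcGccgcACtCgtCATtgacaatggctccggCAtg
Actb held 15 and Actg1 13 such bases in this stretch, Acta2 10, and Acta1 and Actg2 7 each. Bases of Actc1 that are absent from another gene carry no mark and are not in these numbers. The coding sequence with its stop codon had 1134 bases in Actc1, Acta1 and Acta2, 1131 in Actg2 and 1128 in Actb and Actg1. Over the whole coding sequence, the closest pair was Actb and Actg1, with 88.7% identical bases. Actc1 was 86.2% identical to Acta1, and the most distant pairs were Acta2 with Actg1 and Actc1 with Actg1, at 81.5% each. Of all 50-base windows of each transcript, 2.57% in Actb, 2.004% in Acta1, 1.94% in Actg1 and 0.352% in Acta2 were also present in another of the 6 transcripts. Actc1 and Actg2 shared 0. How far the authors' counting could misassign reads between isoforms was not tested.

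The promoter windows that RefSeq gives for 4 of the genes (250 bases before and 50 after the start, GRCm38.p6) were searched on both strands for the CArG box, the element SRF binds. Only the strict form of the box was counted, CC and GG around a core of A and T alone. Actc1, Acta1 and Actg1 each held 1 box, where 1.63% of all 32851 windows of this length held any. The box is in capitals, with 20 bases on each side, 5′ to 3′ on the minus strand.
Actc1 chr2:114052893-114052942: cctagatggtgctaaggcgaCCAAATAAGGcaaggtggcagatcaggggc
Acta1 chr8:123894819-123894868: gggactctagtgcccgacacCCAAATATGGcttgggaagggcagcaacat
Actg1 chr11:120348556-120348605: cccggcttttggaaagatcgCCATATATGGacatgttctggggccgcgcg
The boxes began 47, 73 and 90 bases before the start of Actc1, Acta1 and Actg1, in that order. No match to the strict form was found in the Acta2 window. Boxes with another base in the core, or outside the window, were not searched for, so this does not show that Acta2 lacks SRF sites. Such a match is a description of the letters in this window.

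Each library sums to 1000000 TPM, so a value depends on every other gene in it, and its read depth is unknown. Mitochondrially encoded transcripts made up 39.4% ± 2.34 of TPM in cKO hearts, against 55.4% ± 3.96 in Ctrl hearts (SD, n = 5 each). The median log2 difference (cKO minus Ctrl) of all 13282 genes tested was 0.63 as deposited. Values are therefore also given as scaled TPM, that is, relative to the median gene: each library was divided by its size factor, found as a median of ratios, and the median difference was then 0.01. Chmp4b had 38.2 ± 1.42 TPM in cKO hearts, against 47.4 ± 8.61 TPM in Ctrl hearts (SD, n = 5 each), a log2 difference of -0.29 as deposited and of -1.01 in scaled TPM (limma adjusted p = 0.0340 and 1.86e-06). Xist passed 1 TPM in 3 of 5 cKO libraries (replicates 1, 5 and 7) and in 0 of 5 Ctrl libraries, and the Y-linked Ddx3y in 2 of 5 and 5 of 5, so sex was not balanced between the groups. In these bulk hearts, fewer cells of a type and less RNA per cell cannot be told apart.

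The make-up of the actin family differed between the groups, with a lower share of Actc1 and higher shares of Acta2 and Actb in cKO hearts. The share of a gene in the summed TPM of the 6 actins does not depend on how the rest of the library adds up, although the 6 shares of a library sum to 100% and so are not independent. A higher share is not a higher level: in scaled TPM the log2 difference was 0.01 for Actb and -0.55 for Actg1, whose shares were both higher. The striated actins together made up 79.1% ± 1.62 of actin TPM in cKO hearts, against 88.1% ± 0.4925 in Ctrl hearts. The smooth muscle actins took 9.46% ± 1.85 in cKO hearts, against 3.88% ± 0.298 in Ctrl hearts, and the cytoplasmic actins 11.5% ± 0.229 and 8.01% ± 0.624 (SD, n = 5 each). Groups did not overlap for any of the 3 classes (two-sided exact permutation p = 0.00794, the smallest that 5 against 5 allows, also after Benjamini-Hochberg adjustment over the 3).

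Actc1 took 76.4%, 78.8%, 76.9%, 80.1% and 79.7% of actin TPM in cKO replicates 1, 3, 5, 6 and 7, against 87.7%, 87.0%, 87.0%, 87.7% and 87.2% in Ctrl replicates 4, 6, 8, 9 and 13. Every cKO library was below every Ctrl library. Acta2 took 11.7%, 8.96%, 10.96%, 7.61% and 7.86% in the same cKO libraries and 3.57%, 3.51%, 3.81%, 4.13% and 4.17% in the same Ctrl libraries. The lowest cKO share of Acta2 was well above the highest Ctrl share, and the mean was 2.46-fold higher. Actb took 6.23%, 6.52%, 6.18%, 6.31% and 6.47% in cKO, against 3.41%, 4.16%, 3.86%, 3.34% and 3.57% in Ctrl libraries, again without overlap. The share of Actg1 was also higher without overlap but by less, at 5.12% ± 0.180 in cKO hearts, against 4.35% ± 0.3196 in Ctrl hearts (SD, n = 5 each). These 4 differences passed the threshold (exact permutation p = 0.00794 each, adjusted p = 0.0119 over the 6 shares). Acta1 took 0.707% ± 0.0917 in cKO hearts, against 0.773% ± 0.179 in Ctrl hearts (adjusted exact permutation p = 0.581), and Actg2 0.0367% ± 0.0125 in cKO hearts, against 0.0397% ± 0.0116 in Ctrl hearts (adjusted exact permutation p = 0.690), with overlap in both (SD, n = 5 each).

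**Figure D1:**
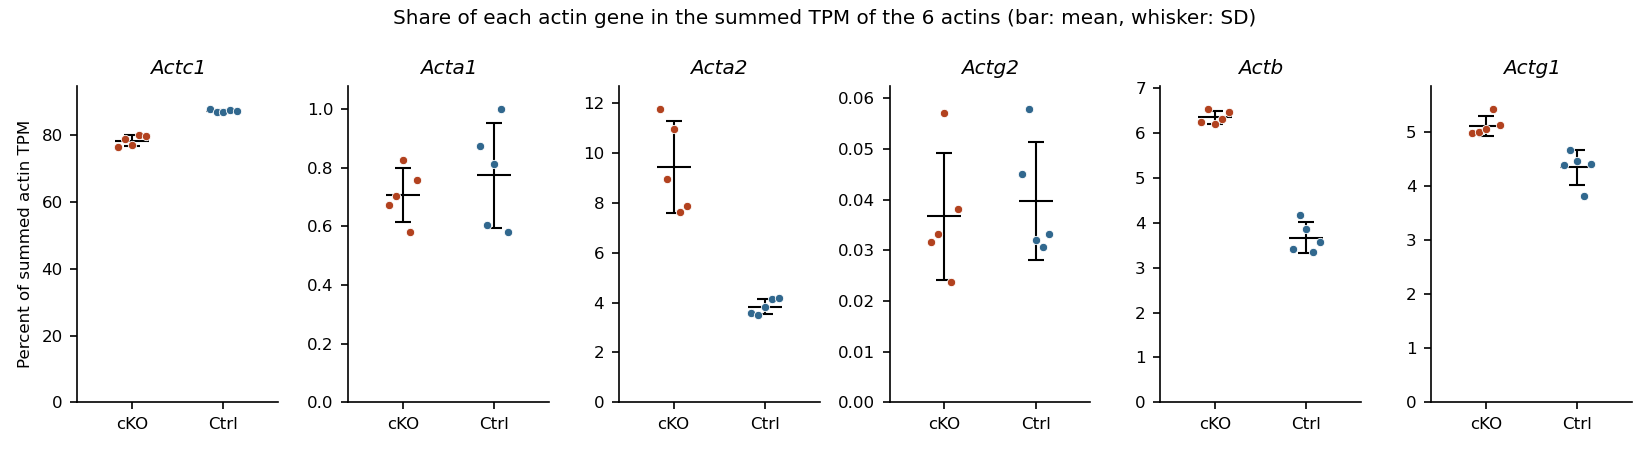
Share of each actin gene in the summed TPM of the 6 actins, in percent, with a point per library, cKO left of Ctrl, the mean as a bar and the SD as a whisker; each panel has its own axis from 0. The Actc1 points of the cKO libraries all lie below those of the Ctrl libraries, the Acta2, Actb and Actg1 points all lie above, and those of Acta1 and Actg2 overlap.

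Within the cKO group, Acta2 was the share that varied most in absolute size, from 7.61% to 11.7%, while Actb kept between 6.18% and 6.52%. The cKO libraries also resembled each other closely in the balance of cytoplasmic over striated actin. The log2 ratio of those 2 sums was -2.79 ± 0.00555 in cKO hearts, against -3.46 ± 0.120 in Ctrl hearts (SD, n = 5 each), a difference of 0.68 or 1.597-fold (exact permutation p = 0.00794, adjusted p = 0.0106 over the 4 ratios tested). The SD of this ratio over the 5 cKO libraries was far below that over the 5 Ctrl libraries, a difference that was not tested.

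The sum of the 6 actins as deposited was 8100.4, 7195, 8999, 8135 and 8676 TPM in cKO libraries, against 7887, 8672, 9041, 9034 and 7771 TPM in Ctrl libraries. These ranges overlapped almost wholly (log2 difference -0.05, exact permutation p = 0.571). In scaled TPM, the sum was 6364 ± 641 TPM in cKO hearts, against 10954 ± 448 TPM in Ctrl hearts (SD, n = 5 each). It was lower in cKO by 0.79 on the log2 scale without overlap (exact permutation p = 0.00794). As a share of the TPM of all nuclear-encoded genes, actin took 1.36% ± 0.0983 in cKO hearts, against 1.91% ± 0.103 in Ctrl hearts (SD, n = 5 each, exact permutation p = 0.00794). The call on summed actin thus depended on the scale, while a share within the family is the same on each.

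Single genes were tested with limma on log2(TPM + 1) over all 13282 genes, with Benjamini-Hochberg adjustment. As deposited, Acta2 and Actb of the 6 actins were called, both higher in cKO, on a scale where 76.5% of all genes were called higher and 3.46% lower (80% in either direction). In scaled TPM, 5 of 6 were called, 1 higher (Acta2) and 4 lower (Actc1, Acta1, Actg1 and Actg2), where 20.8% of all genes were called higher, 20.8% lower and 41.6% in either direction. Groups did not overlap for 2 of 6 actins as deposited, both higher in cKO, and for 64.4% of all genes (62.5% higher, 1.92% lower). In scaled TPM they did not overlap for 4 of 6, Acta2 higher and Actc1, Acta1 and Actg1 lower, and for 31.3% of all genes (15.8% higher, 15.5% lower). The Actg1 difference changed sign between the scales. The 95% interval of Actb in scaled TPM took in 0.

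**Figure D2:**
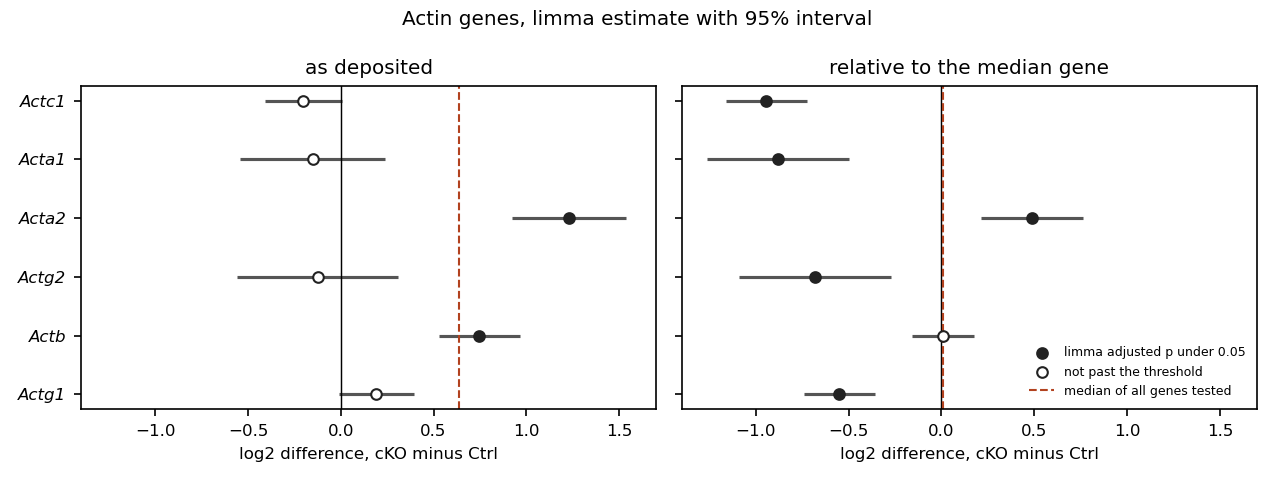
Limma log2 difference (cKO minus Ctrl) of each actin gene with its 95% interval, as deposited on the left and relative to the median gene on the right; filled points passed an adjusted p under 0.05 and the dashed line is the median of all 13282 genes tested. Acta2 lies to the right of that median on both scales, Actb close to it, and the other 4 genes to its left.

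Among the striated actins, Actc1 (ENSMUSG00000068614.8, chromosome 2, 114047282 to 114053548, minus strand, GRCm38) was by far the most abundant of the 6. It ranked 4 to 6 among all nuclear-encoded genes of the cKO libraries and 4 in each Ctrl library. Its TPM was 6186, 5668, 6922, 6513 and 6918 in cKO replicates 1, 3, 5, 6 and 7, against 6919, 7544, 7869, 7921 and 6779.6 in Ctrl replicates 4, 6, 8, 9 and 13. As deposited the groups overlapped, with a log2 difference of -0.20 ± 0.10 SE (limma adjusted p = 0.0683), which passed the threshold without cKO replicate 7 (adjusted p = 0.0495) or with library weights (adjusted p = 0.0250). In scaled TPM it had 4484, 4328, 5174, 5446 and 5524 TPM in cKO libraries, against 9723, 8978, 9334, 10080.4 and 9722 TPM in Ctrl libraries. On that scale no cKO library came near the Ctrl range, and Actc1 fell by 0.94 ± 0.10 SE on the log2 scale (limma adjusted p = 1.78e-05).

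Acta1 (ENSMUSG00000031972.6, chromosome 8, 123891769 to 123894751, minus strand) was present at under 1% of actin TPM. It had 54.4, 50.5, 74.2, 47.2 and 65.6 TPM in cKO libraries, against 68.8, 52.4, 73.5, 90.1 and 45.0 TPM in Ctrl libraries. These values overlapped and both groups varied widely (log2 difference -0.15, 95% interval -0.54 to 0.24, limma adjusted p = 0.448). In scaled TPM, Acta1 fell by 0.88 ± 0.17 SE (limma adjusted p = 0.00167), with 45.1 ± 8.18 TPM in cKO hearts, against 85.1 ± 22.1 TPM in Ctrl hearts (SD, n = 5 each). Actc1 exceeded Acta1 by 114, 112, 93.3, 138 and 105 times in cKO libraries and by 101, 144, 107, 87.9 and 151 times in Ctrl libraries. These ranges overlapped, and the log2 ratio of Acta1 over Actc1 differed by 0.05 (adjusted exact permutation p = 0.825), and without any 1 library this difference lay between -0.0472 and 0.147. Acta1 has a place among the fetal genes that rodent hearts re-express under load, which is background here.

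Among the smooth muscle actins, Acta2 (ENSMUSG00000035783.10, chromosome 19, 34241090 to 34255590, minus strand) rose as deposited and in scaled TPM. Its TPM was 950.2, 645, 986, 619 and 682 in cKO replicates 1, 3, 5, 6 and 7, against 282, 304, 345, 374 and 324 in Ctrl replicates 4, 6, 8, 9 and 13. All cKO libraries were above all Ctrl libraries, with replicates 1 and 5 highest (log2 difference 1.23 ± 0.14 SE, limma adjusted p = 7.11e-06). In scaled TPM it had 689, 492, 737, 518 and 545 TPM in cKO libraries, against 396, 362, 409, 475 and 465 TPM in Ctrl libraries, still without overlap, and it rose by 0.49 ± 0.12 SE (limma adjusted p = 0.00805). The cKO replicates 3 and 6, without Xist, lay nearest to the Ctrl libraries on this scale. With Ddx3y as a covariate the difference was 0.26 (limma adjusted p = 0.194), and without the 3 cKO libraries with Xist it was 0.27 (limma adjusted p = 0.127), so the call in scaled TPM ended in both. As deposited it was 0.96 without those 3 libraries (limma adjusted p = 0.000387), and the Acta2 share then exceeded the Ctrl share by 4.45 percentage points, against 5.59 with all libraries.

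Actg2 (ENSMUSG00000059430.15, chromosome 6, 83512905 to 83536265, minus strand) was near the floor of the data. It had 2.56, 2.39, 5.14, 1.93 and 3.30 TPM in cKO libraries and 3.56, 5.01, 2.89, 2.77 and 2.58 TPM in Ctrl libraries, with full overlap (log2 difference -0.13, 95% interval -0.56 to 0.31, limma adjusted p = 0.573). In scaled TPM it had 1.86, 1.82, 3.84, 1.61 and 2.64 in cKO libraries, against 5.00, 5.96, 3.43, 3.53 and 3.70 in Ctrl libraries. Only cKO replicate 5 reached into the Ctrl range, and Actg2 fell by 0.68 ± 0.19 SE on this scale (limma adjusted p = 0.0119). Acta2 exceeded Actg2 by 371, 270.3, 192, 322 and 207 times in cKO libraries and by 79.2, 60.7, 119, 135 and 125.6 times in Ctrl libraries, without overlap. The log2 ratio was 1.41 higher in cKO (exact permutation p = 0.00794, adjusted p = 0.0106).

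Among the cytoplasmic actins, Actb (ENSMUSG00000029580.15, chromosome 5, 142903115 to 142906754, minus strand) had 505, 469, 557, 513 and 561 TPM in cKO libraries, against 269, 361, 349, 302 and 277 TPM in Ctrl libraries. It rose as deposited, without overlap, by 0.75 ± 0.10 SE (limma adjusted p = 2.46e-05), close to the 0.63 of the median gene. In scaled TPM it had 366, 358, 416, 429 and 448 TPM in cKO libraries, against 378, 429.7, 413, 384 and 397 TPM in Ctrl libraries. The ranges overlapped there, with a log2 difference of 0.01 and a 95% interval from -0.16 to 0.17 (limma adjusted p = 0.955).

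Actg1 (ENSMUSG00000062825.15 in GENCODE M21 and version 16 in the deposited table, chromosome 11, 120345690 to 120348542, minus strand) had 403, 359, 455, 441 and 446 TPM in cKO libraries, against 346, 405, 403, 344 and 343 TPM in Ctrl libraries. The groups overlapped (log2 difference 0.19, 95% interval -0.01 to 0.39, limma adjusted p = 0.0762), and the difference passed the threshold without cKO replicate 3 (adjusted p = 0.0320) or Ctrl replicate 6 (adjusted p = 0.0414). In scaled TPM, Actg1 fell by 0.55 ± 0.09 SE without overlap (limma adjusted p = 0.000369), with 326 ± 41.0 TPM in cKO hearts, against 475 ± 21.2 TPM in Ctrl hearts (SD, n = 5 each). The order of the 2 cytoplasmic genes was opposite in the groups. Actb stood at 1.25, 1.31, 1.224, 1.16 and 1.26 times Actg1 in cKO libraries and at 0.777, 0.891, 0.865, 0.876 and 0.809 times Actg1 in Ctrl libraries. The log2 ratio was 0.56 higher in cKO (exact permutation p = 0.00794, adjusted p = 0.0106).

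**Figure D3:**
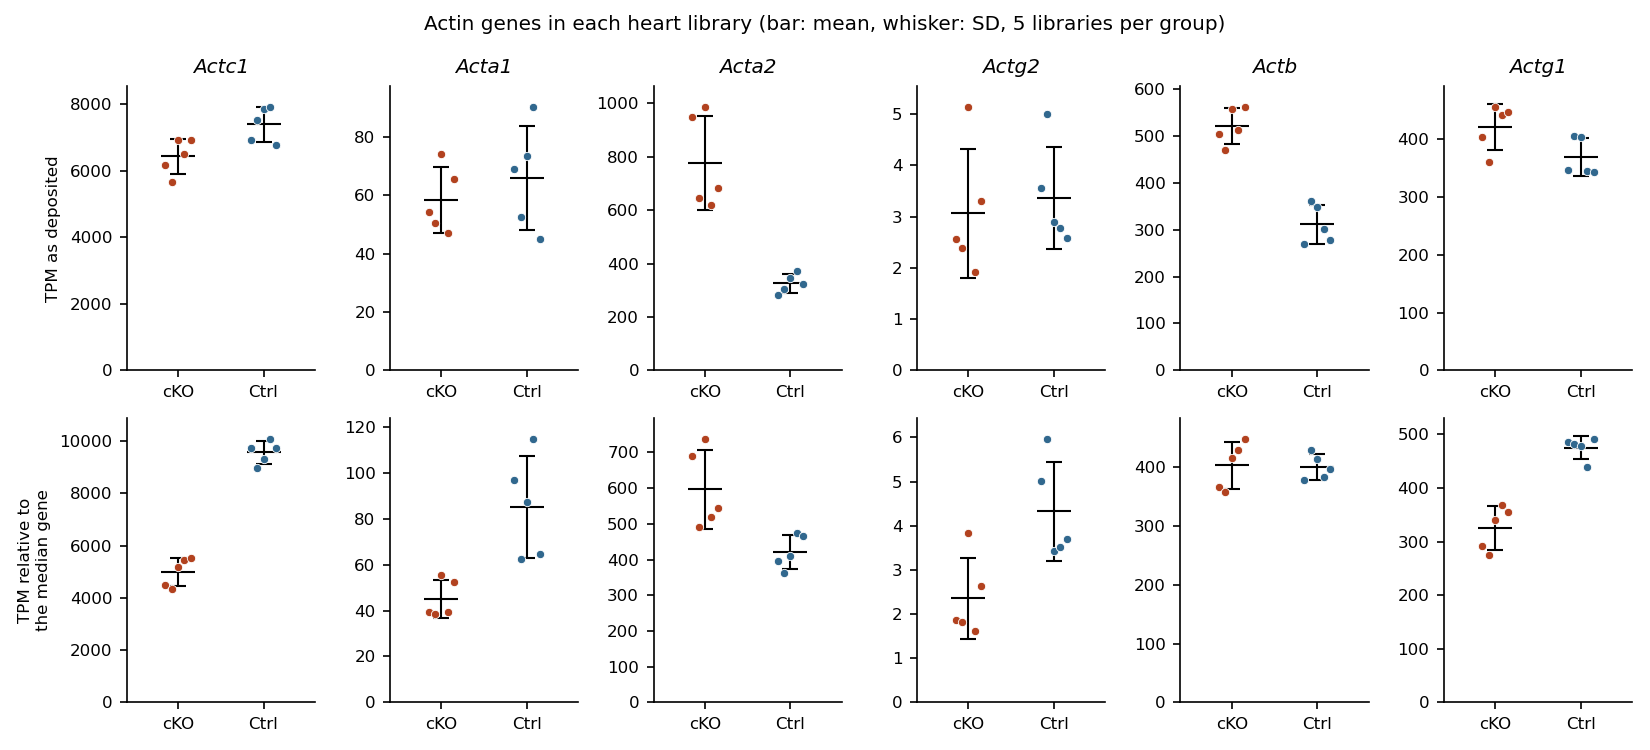
TPM of the 6 actin genes in each library, as deposited in the upper row and relative to the median gene in the lower row, with cKO left of Ctrl, a point per library, the mean as a bar and the SD as a whisker; each panel has its own axis from 0. Acta2 is higher in cKO in both rows, Actb in the upper row, and Actc1, Acta1 and Actg1 are lower without overlap in the lower row.

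Set in order of TPM, the cKO libraries all ran Actc1, Acta2, Actb, Actg1, Acta1, Actg2. In the Ctrl libraries Actc1 was also first and Acta1 and Actg2 last, but the 3 genes between them stood in different orders, with Actg1 leading in 4 of 5 libraries and Acta2 in Ctrl replicate 9, and their ranges (282 to 374 TPM for Acta2, 269 to 361 for Actb, 343 to 405 for Actg1) overlapped. In cKO hearts Acta2 (619 to 986 TPM) stood above Actb (469 to 561) without overlap, and Actb above Actg1 (359 to 455) without overlap.

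The genes whose values in scaled TPM followed each actin most closely over the 10 libraries are a description of likeness only. Apart from Actb, the actins were called different between the groups on this scale, a difference that enters r. For Actc1 they were Trp53inp2, Rnf128 and Exoc6 (Pearson r = 0.995, 0.994 and 0.993, and 0.899, 0.880 and 0.859 after subtraction of the group means). For Acta1 they included Lrrn4cl and Bcl6 (r = 0.962 and 0.961, and 0.881 and 0.861 within groups). For Acta2 they were Bcl3, Itga4 and Tmcc2 (r = 0.951, 0.950 and 0.947, and 0.879, 0.875 and 0.937 within groups). For Actg1 they were Nts, Htra1 and Ripply3 (r = 0.985, 0.984 and 0.981, and 0.921, 0.907 and 0.964 within groups). For Actb they were Arl4c, Cbwd1 and Ankmy2 (r = 0.971, 0.910 and 0.902, and 0.972, 0.913 and 0.909 within groups). For Actg2 they were Zfp979, Inca1 and AU021092 (r = 0.965, 0.945 and 0.944, and 0.918, 0.869 and 0.869 within groups). None of these was another actin. Gene models without a name were passed over, and 1 of them stood above Ankmy2.

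Genes that build, cap and anchor actin filaments were counted in scaled TPM, on the scale where 20.8% of all genes were called in each direction and the median was 0.01. Counts as deposited stand beside them, where 76.5% of all genes were called higher and 3.46% lower. Of the Arp2/3 complex, which nucleates branched filaments, 7 of 9 members rose and 0 fell (median 0.34), and 9 of 9 rose as deposited, beside the 76.5% of all genes. Arpc2 had 162 ± 13.9 TPM in cKO hearts, against 119.7 ± 3.95 TPM in Ctrl hearts (log2 difference 0.43, limma adjusted p = 0.000266), with Arpc1b, Arpc5 and Actr2 higher by 0.38, 0.37 and 0.34. Without cKO replicate 6, cKO replicate 7 or Ctrl replicate 13, 1 member was called lower. Only 5 of the 9 were called higher with Ddx3y as a covariate, and also without the 3 cKO libraries with Xist. Of all 13282 genes, these fits each called 1642 higher, against 2763 in the fit without these changes. They called 1774 and 1819 lower, in that order, against 2766. List counts from these fits, here and below, stand beside those numbers and not beside the 20.8%. Of 21 genes for monomer binding and filament turnover, 12 rose and 0 fell (median 0.26), and 21 rose as deposited. Coro1a, a coronin of leukocytes, had 16.4 ± 0.846 TPM in cKO hearts, against 5.60 ± 1.03 TPM in Ctrl hearts (log2 difference 1.41, limma adjusted p = 1.74e-06). Gmfg and Gmfb, encoding debranching factors of which Gmfg is typical of blood cells, rose by 0.95 and 0.74, and the profilin gene Pfn2 by 0.67. With Ddx3y as a covariate 7 of the 21 were called higher, beside 1642 of all 13282 genes. Values with SD are over n = 5 each.

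Genes for actin folding rose in 7 of 16 members and fell in 0 (median 0.20), and 16 rose as deposited. All 7 were subunit genes of CCT, the ring-shaped chaperonin that folds actin and tubulin. In scaled TPM, Cct3 had 94.4 ± 4.98 TPM in cKO hearts, against 59.8 ± 1.88 TPM in Ctrl hearts (log2 difference 0.65, limma adjusted p = 3.52e-06), and Cct4, Cct5 and Cct7 stood 0.32, 0.28 and 0.24 higher (SD, n = 5 each). The prefoldin genes of the list were not called. Without Ctrl replicate 13, 1 of the 16 was called lower. Only 5 of the 16 were called higher with Ddx3y as a covariate, and also without the 3 cKO libraries with Xist. Each of these fits called 1642 of all 13282 genes higher.

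Among 12 tested capping and leiomodin genes, 3 rose and 5 fell in scaled TPM (median -0.14), against 7 and 1 as deposited (median 0.58). The pointed-end cap gene Tmod1 had 76.6 ± 4.18 TPM in cKO hearts, against 129 ± 6.07 TPM in Ctrl hearts in scaled TPM (log2 difference -0.74, limma adjusted p = 2.14e-06). Lmod2, whose product lengthens cardiac thin filaments, and the minor gene Tmod4 fell by 0.77 and by 1.05. Capg, a capping protein gene high in macrophages, rose by 0.89. As deposited, Tmod1 and Lmod2 stood at -0.01 and -0.03 (limma adjusted p = 0.919 and 0.861). Of 15 tested crosslinkers and membrane linkers, 5 rose and 6 fell in scaled TPM (median -0.12), against 13 and 0 as deposited (median 0.60). Actn2, the α-actinin of the Z-disc, fell by 0.76 in scaled TPM and stood at -0.02 without a call as deposited. The leukocyte plastin gene Lcp1 rose by 1.31 and moesin, Msn, by 0.55, both in scaled TPM. With Ddx3y as a covariate, or without the 3 cKO libraries with Xist, 2 of the 15 were called higher. Each of these fits called 1642 of all 13282 genes higher. Of 12 tested formins, 2 rose and 3 fell in scaled TPM, near the 20.8% of all genes in each direction (median 0.05), against 11 and 1 as deposited (median 0.64). In scaled TPM, Fhod3, the sarcomeric formin, had 52.9 ± 17.3 TPM in cKO hearts, against 118 ± 13.7 TPM in Ctrl hearts (log2 difference -1.19, limma adjusted p = 0.000249, SD, n = 5 each). Inf2 and Fmn1 rose by 0.50 and 0.53 in scaled TPM, and Fmnl2 fell by 0.25 (limma adjusted p = 0.0241). As deposited, Fmnl2 was called higher (0.26, limma adjusted p = 0.0366), so its direction turned with the scale. Without Ctrl replicate 9, with Ddx3y as a covariate or without the 3 cKO libraries with Xist, 1 formin was called lower. Of 8 tested actin-related genes, 2 fell and 0 rose in scaled TPM (median -0.07), a share lower near the 20.8% of all genes, against 1 and 7 as deposited. Actr3b fell by 1.09 in scaled TPM. Actr1b fell by 0.37 in scaled TPM but was called higher as deposited (0.35, limma adjusted p = 0.000635), so its direction turned with the scale, and Actr1a and Actr10 stood at 0.12 and 0.29 without a call. With Ddx3y as a covariate, or without the 3 cKO libraries with Xist, 1 was called lower, and without Ctrl replicate 9, 1 was called higher. The near copy of β-actin, Actbl2, was listed at 0 in all 10 libraries.

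Of 14 regulators of SRF, 1 rose and 6 fell in scaled TPM (median -0.21). Srf had 26.9 ± 1.87 TPM in cKO hearts, against 40.3 ± 4.12 TPM in Ctrl hearts (log2 difference -0.56, limma adjusted p = 0.000173, SD, n = 5 each). Fhl2 fell by 1.24, Abra, an activator of MRTF in striated muscle, by 1.10, and Ablim1 by 0.73. Rhoa, chosen after its values were seen, was the 1 that rose (0.21, limma adjusted p = 0.0400), a call that ended in 7 of the 10 fits without 1 library (all but cKO replicate 3 and Ctrl replicates 6 and 8). As deposited, 8 regulators rose and 2 fell, beside 76.5% of all genes called higher and 3.46% lower, with Srf at 0.16 (limma adjusted p = 0.132). Of 20 listed SRF target genes other than actins, 4 rose and 8 fell in scaled TPM (median -0.20). As deposited, 14 rose and 0 fell (median 0.52), beside the 76.5% of all genes called higher. Of those that fell in scaled TPM, Srf also counts among the 14 regulators, Vcl and Flna among the crosslinkers and Tagln among the smooth muscle markers. Vcl and Flna were called higher as deposited (0.38 and 0.43, limma adjusted p = 0.00969 and 0.000531). Filip1l, Tpm2 and Tpm1, the last encoding the main tropomyosin of cardiac thin filaments, fell by 0.86, 0.75 and 0.62. The 4 that rose were Egr1, Ccn2, Ccn1 and Tagln2 (0.87, 0.79, 0.71 and 0.14), named after their values were seen. With Ddx3y as a covariate, or without the 3 cKO libraries with Xist, 1 was called higher. Each of these fits called 1642 of all 13282 genes higher.

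Vascular smooth muscle markers, of which Acta2 is commonly taken as typical, fell in 6 of 7 tested members in scaled TPM and rose in 0 (median -0.77), against 2 lower and 0 higher as deposited. Their summed level was 102 to 122 TPM in cKO libraries, against 228 to 271 TPM in Ctrl libraries, and 132 to 164 TPM in cKO libraries, against 167 to 209 TPM in Ctrl libraries as deposited. Smtn was the largest part of this sum, with means of 57.7 (cKO) and 154 (Ctrl) scaled TPM. As deposited its means were 74.4 and 119 TPM. On that scale 5 members were not called, Tagln, Cnn1 and Mylk at 0.29, 0.31 and 0.19, and Myh11 and Myocd at -0.27 and -0.08. In scaled TPM, Smtn and Synpo2 fell by 1.41 and 1.19. Myh11, the myosin of contractile smooth muscle, named after its value was seen, fell by 0.90 on that scale. Smtn, Synpo2 and Myocd are also expressed by heart muscle. Counts in all marker lists stand beside 20.8% of all genes called in each direction in scaled TPM, and 76.5% higher and 3.46% lower as deposited. Of 8 pericyte markers, 1 rose and 4 fell in scaled TPM (median -0.36), and 5 rose and 0 fell as deposited (median 0.35). In scaled TPM those that fell included Vtn by 0.93 and Abcc9 by 0.89, with a summed level of 223 to 260 TPM in cKO libraries, against 299 to 352 TPM in Ctrl libraries.

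Fibroblast markers rose in 7 of 8 members and fell in 1 in scaled TPM (median 0.57), and 8 of 8 rose as deposited. In scaled TPM, Tcf21 and Pdgfra were higher by 0.86 and 0.76. The 1 that fell was Dpt, named after its value was seen, and that call ended in 5 of the 10 fits without 1 library (cKO replicates 1 and 3, Ctrl replicates 6, 8 and 9). Their summed level in scaled TPM was 1535 to 1862 TPM in cKO libraries, against 1090 to 1398 TPM in Ctrl libraries. Markers of activated fibroblasts, a cell state in which Acta2 is often high, rose in 5 of 8 and fell in 0 in scaled TPM (median 0.39). As deposited they rose in 8 of 8. In scaled TPM, Tnc and Meox1 were higher by 1.24 and 0.81. The summed level on that scale was 537 to 696 TPM in cKO libraries, against 354 to 388 TPM in Ctrl libraries. Macrophage markers, whose cells are rich in Actb, rose in 11 of 11 on both scales (median 1.85 in scaled TPM). C1qb and C1qa were higher by 2.04 and 1.95, and the summed level in scaled TPM was 352 to 500.2 TPM in cKO libraries, against 102 to 116 TPM in Ctrl libraries. The part of these cell types in the rises of Acta2 and, as deposited, Actb was not tested.

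Ventricular cardiomyocyte markers, the genes of the cells that hold Actc1, fell in 8 of 8 members in scaled TPM (median -0.88) and in 3 of 8 as deposited, beside scaled falls of 0.94 in Actc1 and 0.88 in Acta1. Ryr2 and Tnni3 fell by 1.69 and 1.46 in scaled TPM. The summed level of these markers was 20438 to 26514 TPM in cKO libraries, against 38316 to 41427 TPM in Ctrl libraries in scaled TPM, and 28196 to 31707 TPM in cKO libraries, against 27372 to 34809.9 TPM in Ctrl libraries as deposited. Endothelial markers fell in 8 of 8 in scaled TPM (median -0.60), with Pecam1 and Cdh5 lower by 0.64 each, whereas as deposited limma called 0 of 8, and 0 at an unadjusted p under 0.05 (median 0.12). Their summed level in scaled TPM was 322 to 432 TPM in cKO libraries, against 551 to 615 TPM in Ctrl libraries. Of 6 tested atrial markers, 2 rose and 1 fell in scaled TPM (median 0.28), against 4 and 1 as deposited. In scaled TPM, Dkk3 was higher by 2.23 and Kcnj3 lower by 2.02. The summed level on that scale was 48.9 to 102 TPM in cKO libraries, against 29.9 to 35.0 TPM in Ctrl libraries. Dkk3 held a mean of 34.4 TPM of this sum in cKO hearts, against 6.54 in Ctrl hearts. Myl7 ranged from 2.93 to 37.4 TPM over cKO libraries, and Nr2f2 and Stard10 stood at -0.07 and -0.16 without a call. Without the 3 cKO libraries with Xist, 1 atrial marker was called higher and 2 lower, and 0 pericyte markers higher. That fit called 1642 of all 13282 genes higher and 1819 lower. Skeletal muscle markers, relevant to Acta1, were low, with 5 of 12 under 1 TPM in every library. Of the 7 tested, 0 rose and 1 fell in scaled TPM (Casq1, by 1.25), against 2 and 1 as deposited. Atp2a1 stood at -0.39 without a call, and the summed level in scaled TPM was 26.5 to 51.2 TPM in cKO libraries, against 31.5 to 63.2 TPM in Ctrl libraries. Without Ctrl replicate 4, 3 of the 7 were called lower, and without cKO replicate 3, 2 were.

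**Figure D4:**
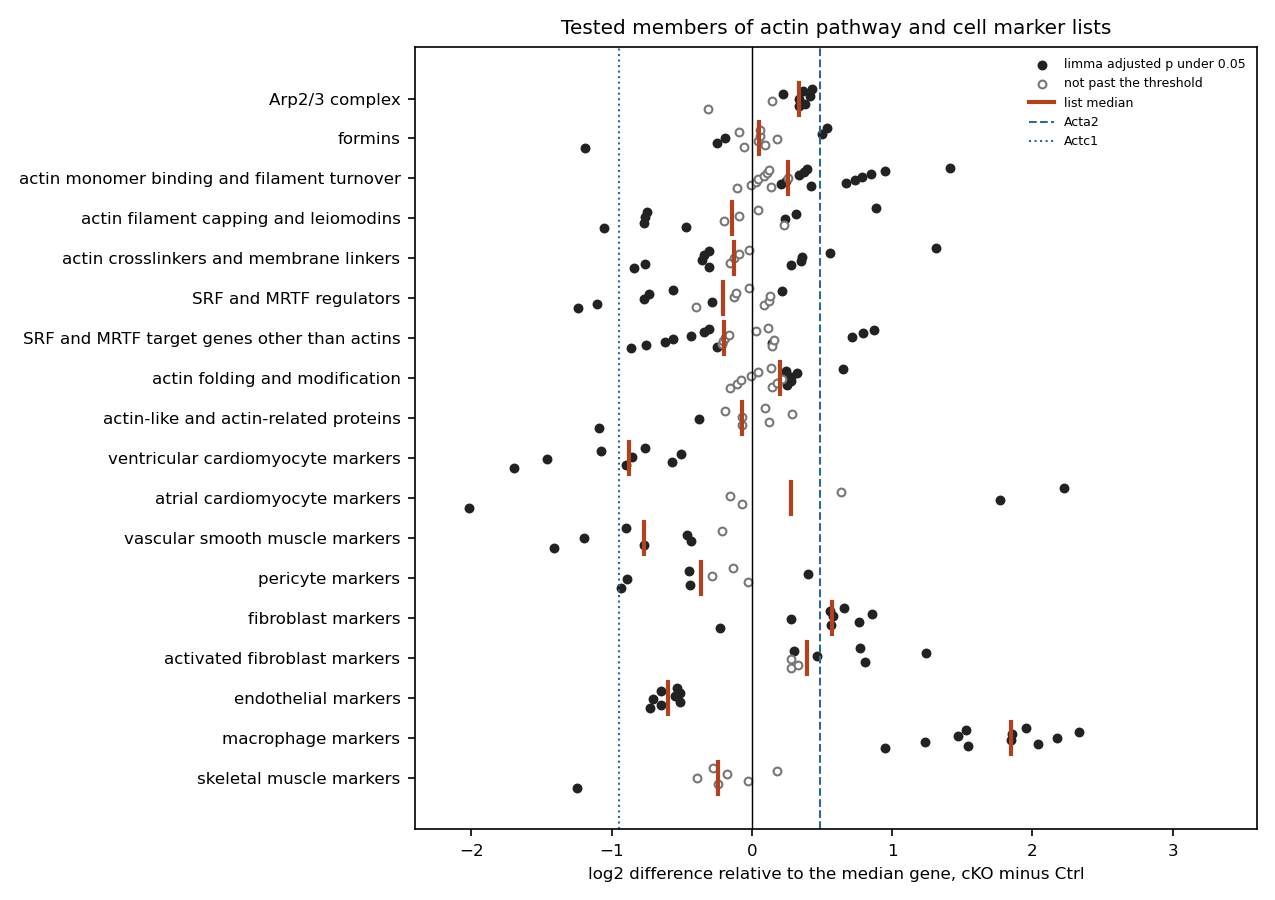
Log2 difference relative to the median gene (cKO minus Ctrl, horizontal axis) of each tested member of the actin pathway and cell marker lists, a point per gene, filled where the limma adjusted p was under 0.05, with the list median in red. The dashed line marks Acta2 at 0.49 and the dotted line Actc1 at -0.94; ventricular cardiomyocyte and vascular smooth muscle markers lie to the left of 0 and macrophage markers to the right.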

How the data were processed

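The authors deposited 1 table of TPM per gene and library; per the submitters' processing notes, the tools included STAR 2.7.1 with build mm10, DESeq2 1.22.2 and HTSeq 0.11.2, besides Picard 1.96, FastQC 0.11.7, Trimmomatic 0.32 and bcl2fastq, with no role or order given. The labels do not state the annotation release, gene lengths or strand setting. TPM keeps no depth, so no counting error is given. Groups and replicate numbers came from the sample titles, and no 2 libraries were identical. Whether replicates shared a litter was not stated.

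Genes with at least 1 TPM in at least 5 libraries (13282) were tested with limma 3.58.1 in R 4.3.3 on log2(TPM + 1), with a variance trend, called at an adjusted p under 0.05; fold changes of low genes are understated. Size factors used 16393 genes above 0 in every library. Single values used the two-sided exact permutation test over 252 splits. Limma was tested on simulated data. Of 55858 genes, 51460 (92.1%) matched GENCODE M21 by unversioned ID. Members and lists were chosen with earlier results of these data known. Some genes, among them Srf, Vcl, Flna, Tagln, Cnn1, Myocd and Actn2, stand in 2 lists and count in each. Genes named to show such overlaps or the make-up of a summed level were chosen after their values were seen. Named list genes are the 4 (markers: 2) with the smallest p relative to the median gene. Some genes that the rules name are not reported here. Python 3.11.15, numpy 2.4.6 and pandas 2.3.3 were used. Alternatives left out each library in turn, added Ddx3y as a covariate or library weights, or changed the pseudocount, filter, scaling or variance model. Those chosen after seeing the data were the same settings in scaled TPM and leaving out 3 cKO libraries with Xist.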

Additional observations from a re-analysis of the deposited data

Results flagged for a closer look

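Over 54 sets of 5 libraries (each actin level, share and ratio in each group), the highest or lowest library was compared with its nearest neighbour. Actg1 relative to the median gene in Ctrl replicate 9, at 438 TPM, lay apart from the other 4 Ctrl libraries (478 to 491 TPM). Its gap was 0.746 of the group's range, above Dixon's 95% critical value for 5 samples. Chance marks about 1 in 20 such sets.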

How the results depend on the processing

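The differences in the shares of Actc1, Acta2, Actb and Actg1, in the 3 class shares and in the Acta2 over Actg2, Actb over Actg1 and cytoplasmic over striated ratios kept their direction and call in each alternative that could reach the threshold, including without any 1 library, where the smallest exact p that 4 against 5 allows is 0.0159. The difference in summed actin TPM (-0.05) passed the threshold at -0.79 relative to the median gene, -0.49 over nuclear-encoded genes and -0.72 without the 100 genes of highest mean; without any 1 library it lay between -0.0796 and 0.00107 (above 0 without cKO replicate 3). Without any 1 library, Acta1 over Actc1 ranged from -0.0472 to 0.147 and the Actg2 share difference from -0.00811 to 0.00149 percentage points, changing sign with no call. Actg1 reversed to -0.55 relative to the median gene, -0.26 over nuclear-encoded genes and -0.49 without the 100 most abundant genes. Actb relative to the median gene (0.01) turned to -0.0298 with the Ddx3y covariate, to -0.0290 without the 3 cKO libraries with Xist, and lay between -0.0326 and 0.0480 without any 1 library. Over all genes, 10160 were called higher and 460 lower as deposited, 2763 and 2766 relative to the median gene, 6066 and 1388 over nuclear-encoded genes, and 3278 and 2347 without the 100 genes of highest mean; 293 were lower with at least 5 TPM in 5 libraries. Relative to the median gene, 1642 were higher and 1774 lower with the Ddx3y covariate, and 1642 and 1819 without the 3 cKO libraries with Xist. The cause of these changes was not tested. TPM hides depth. No paired analysis was possible because the titles give the groups 1 replicate number in common.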
